A study of Mus musculus with 12 samples.

Results

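The genes described here are the integrins and the laminins, the receptors with which cells hold on to the extracellular matrix and the largest glycoproteins of the basement membrane they hold on to. All protein-coding genes with an integrin alpha, integrin beta, integrin beta-like or laminin alpha, beta or gamma symbol were taken, which gave 38 of the 55573 genes measured: 18 integrin alpha chains, 8 integrin beta chains, the integrin beta-like gene Itgbl1, 5 laminin alpha, 3 laminin beta and 3 laminin gamma chains. Their mRNA was measured by RNA sequencing in mouse embryonic fibroblasts (MEFs) immortalised with SV40 large T antigen, in a study of how caspase-8 and FADD keep ZBP1 expression and necroptosis in check. One line, the Fadd line, lacked Fadd and Mlkl (Fadd-/-Mlkl-/-) and carried an empty vector (the Fadd knockout group) or re-expressed FADD (Fadd restored). The other, the Casp8 line, lacked Casp8 and Mlkl (Casp8-/-Mlkl-/-) and carried an empty vector (Casp8 knockout) or re-expressed caspase-8 (Casp8 restored). All 4 groups are thus labelled as lacking Mlkl, which codes for the executioner of necroptosis. The cells were untreated and were collected 24 h after plating, and each group had 3 libraries from cultures that the labels call independent. No group had intact, never deleted genes. Loss of FADD or caspase-8 below therefore means the knockout group against the restored group of the same line. The sources do not say how many embryos or clones a line came from. Line, genotype and clone thus cannot be told apart in any comparison of the Fadd line with the Casp8 line.

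An integrin is a pair of 1 alpha and 1 beta chain, and the pair decides which ligand is bound. The beta 1 chain pairs with many alpha chains to bind collagens, laminins and fibronectin, the alpha V chain pairs with several beta chains to bind ligands with an RGD motif and to release TGF-beta from its latent form, and the beta 2 chain with its partners belongs to leukocytes. A laminin is a cross-shaped trimer of an alpha, a beta and a gamma chain, and the alpha chain carries the globular domains to which integrins, dystroglycan and BCAM bind. Fibroblasts in culture use beta 1 and alpha V integrins to attach and spread.

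Of the 38 genes, 31 had enough counts to be tested. The other 7 were Itgad, Itgae, Itgal, Itgam, Itgax and Itgb2, which code for integrin chains of leukocytes, and Lamc3, the laminin gamma 3 chain, and none of them exceeded 0.608 CPM (counts scaled to library size, with TMM factors between libraries) in any library. Markers of leukocytes and of endothelial cells were low. The 10 leukocyte markers summed to between 1.403 and 3.952 CPM over the 12 libraries, with 1 of them at 0 throughout. The 6 endothelial markers summed to between 0.1638 and 1.344 CPM, with none at 0 throughout. Schwann and neural markers reached 380.5 CPM and epithelial markers 34.5 CPM, as given with the other markers below. Total expected counts ran from 33918359 to 59388559 per library. Fadd was at 0.176, 0.0364 and 0.0876 CPM in the Fadd knockout libraries and at 26.1, 19.1 and 25.8 when restored. Casp8 was at 12.4, 11.3 and 10.4 CPM in the Casp8 knockout libraries and at 67.7, 172 and 182 when restored. Both restored genes were on average above their level in the other line. There Fadd averaged 10.4 CPM (Casp8 knockout) and 9.65 CPM (Casp8 restored), and Casp8 43.1 CPM (Fadd knockout) and 48.8 CPM (Fadd restored). Reads of Mlkl were counted in all 12 libraries, at 3.69 to 15.9 CPM, and counts per gene do not show which exons they came from, so the loss of Mlkl rests on the labels alone. The Casp8 knockout and Casp8 restored libraries numbered 1 stood apart from the other libraries of their line, with scores on the first principal component of 15 and 23.52 against 55.67 to 71.99 for the other 4. The Fadd line libraries numbered 1 lay apart from their groups as well. Fadd knockout library 1 was at -83.25 against -52.64 and -52.66, and Fadd restored library 1 at -45.24 against -30.59 and -26.5. On the 12 integrin and laminin genes called between the knockout groups, Casp8 knockout library 1 lay nearer to the mean of the Fadd knockout group on 9, and Casp8 restored library 1 lay nearer to the other line on 6, so the calls that change without them are given with the counts of calls.

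More of the integrin and laminin genes were called between the lines than within them. A gene is called where edgeR's quasi-likelihood test gave an adjusted p under 0.05 (Benjamini-Hochberg over all 16396 genes tested). Between the knockout groups 12 of 31 were called (38.7%, with 10.5% of all genes called), 1 higher and 11 lower in the Fadd line (3.46% and 7.01% of all genes). Between the restored groups 8 of 31 were called (25.8%, with 6.34% of all genes), 2 higher and 6 lower (2.93% and 3.4% of all genes). The restored groups share no library with the knockout groups, but they come from the same 2 lines. The spread was estimated over all 12 libraries, so the 2 comparisons are not independent. Losing FADD called 0 of 31 (1.52% of all genes, 0.287% higher and 1.24% lower), losing caspase-8 called 0 of 31 (0.0061% of all genes), and 0 of 31 had changes that differed between the lines (0.842% of all genes, 0.787% lower in the Fadd line). At an unadjusted p under 0.05 these last 3 comparisons held 5 (10.3% of all genes), 3 (5.67%) and 6 genes (7.4%), and DESeq2 called 2 in each, where it called 697, 143 and 420 of all genes against 250, 1 and 138 with edgeR. Libraries did not overlap for 11 of 31 genes between the knockout groups (27.8% of all genes) and for 13 between the restored groups (26.9%). The median log2 change of the 31 genes was -0.74 between the knockout groups and -0.39 between the restored groups, with medians near 0 (-0.0043 and -0.0092) over all genes.

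Many of these calls depended on the method or on a few libraries. With limma-voom the knockout calls of Lama1, Lama2, Lama4, Itga4, Itga8, Itga9 and Itgb8 were lost (adjusted p from 0.0625 to 0.288), as were the restored calls of Lama2, Lama4, Itga2, Itga8 and Itgb8 (from 0.0645 to 0.269). Without both Fadd line libraries numbered 1 the knockout calls of Lama1, Lama5, Itga8, Itga9 and Itgb1 were lost (from 0.0542 to 0.121), and the restored calls of Lama4, Lama5, Itga8, Itgb1 and Itgb8 (from 0.067 to 0.128). A fit of only the groups compared, in which Lama1, Itga4, Itga8 and Itga9 did not pass the filter on low counts between the knockout groups, ended the knockout call of Lama5 (adjusted p = 0.0773) and the restored calls of Itga5, Itgb1 and Itgb8 (from 0.0553 to 0.0739). The knockout calls of Itga5, Itga11 and Itgav were kept under every alternative run.

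Leaving out the libraries numbered 1 of the Casp8 line added calls, and calls rose over all genes as well. Without Casp8 knockout library 1, 2558 genes were called between the knockout groups against 1718 with it, and Itga2 (2.80, adjusted p = 0.0172), Lamb3 (2.52, adjusted p = 0.018) and Itgb3 (-1.97, adjusted p = 0.0188) were among them. For loss of FADD, where 390 genes were called against 250, Itga9 was then called (-4.61, adjusted p = 0.0314) beside Itga11. The difference of changes, with 241 genes against 138, was then called for Itga9 (-5.84, adjusted p = 0.0343), Lama4 (-4.73, adjusted p = 0.0163) and Lama2 (-4.68, adjusted p = 0.0469) beside Itga11. Without both libraries numbered 1 of the Casp8 line, loss of FADD was also called for Lama4 (-2.51, adjusted p = 0.0166), loss of caspase-8 for Lama4 and for Itga8 (2.20, adjusted p = 0.0397), and the knockout comparison for Itgb5 (-0.51, adjusted p = 0.016). Between the restored groups 3118 genes were then called against 1039, and the added calls included Itga4, Itga11, Lama1, Lamb3, Itgb2 and Itgbl1 (adjusted p from 0.00318 to 0.0445).

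**Figure D1:**
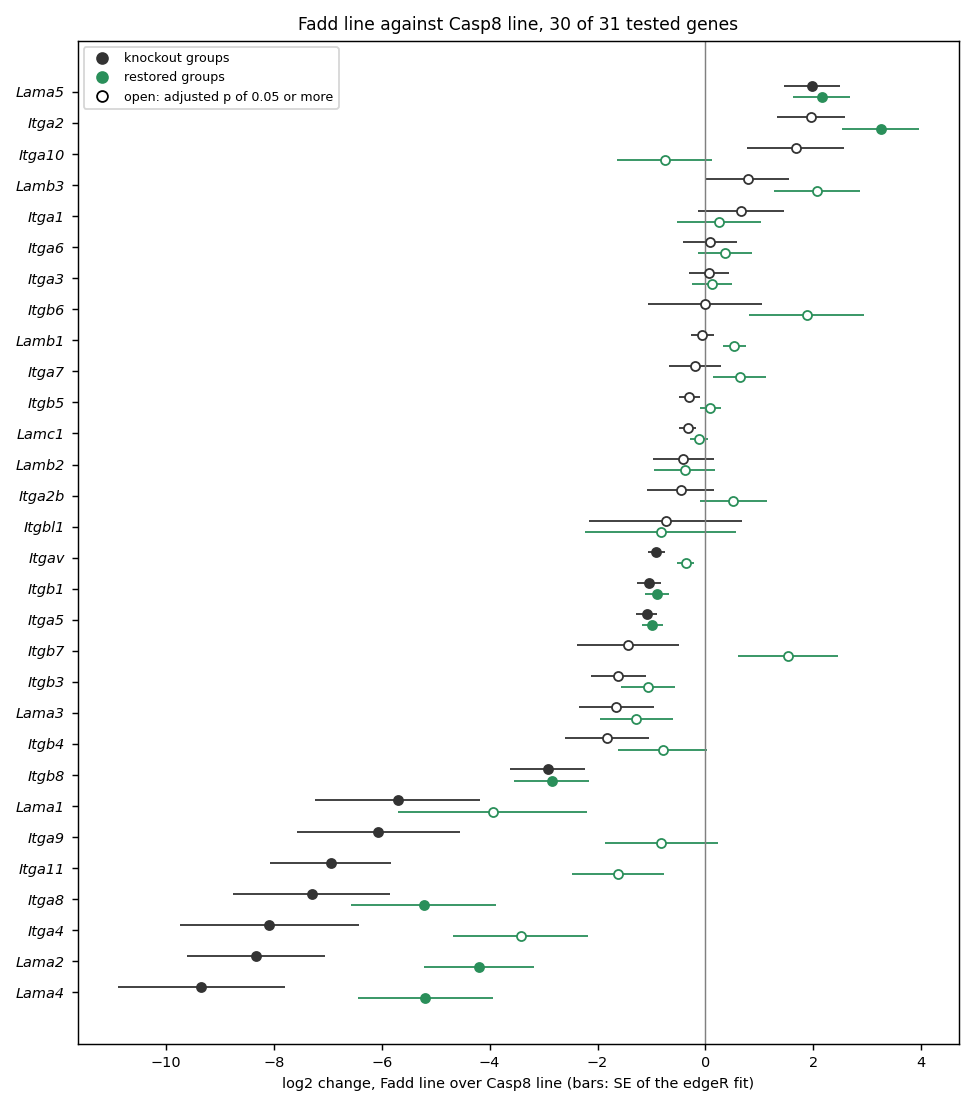
Log2 change of 30 of the 31 tested genes, Fadd line over Casp8 line, between the knockout groups (black) and between the restored groups (green). Bars are standard errors of the edgeR fit, filled points have an adjusted p under 0.05, and Lama5 lies at the top and Lama4 and Lama2 at the bottom in the order of the knockout comparison.

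The laminin alpha chain genes differed between the lines in both directions. Lama5 codes for the alpha 5 chain, the widespread chain of mature basement membranes, while Lama2 codes for the alpha 2 chain of muscle and nerve and Lama4 for the alpha 4 chain of vessels and mesenchyme. Lama5 was higher in the Fadd line, and Lama2 and Lama4 were lower, in both the knockout and the restored comparison. To show the gene starts of a pair that moved in opposite directions, the 300 bases from 250 before to 50 after the RefSeq start of Lama2 (chr10:27616893-27617192, minus strand) and Lama5 (chr2:180225810-180226109, minus strand) are printed from GRCm38.p6, 5′ to 3′ on the strand of the gene, with matches to the GC box GGGCGG or its complement CCGCCC in capitals.
Lama2: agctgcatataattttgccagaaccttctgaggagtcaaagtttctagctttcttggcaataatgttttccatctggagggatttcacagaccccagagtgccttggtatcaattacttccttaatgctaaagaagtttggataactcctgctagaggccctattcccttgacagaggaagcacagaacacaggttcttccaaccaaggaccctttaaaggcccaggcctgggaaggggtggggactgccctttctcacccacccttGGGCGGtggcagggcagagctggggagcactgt
Lama5: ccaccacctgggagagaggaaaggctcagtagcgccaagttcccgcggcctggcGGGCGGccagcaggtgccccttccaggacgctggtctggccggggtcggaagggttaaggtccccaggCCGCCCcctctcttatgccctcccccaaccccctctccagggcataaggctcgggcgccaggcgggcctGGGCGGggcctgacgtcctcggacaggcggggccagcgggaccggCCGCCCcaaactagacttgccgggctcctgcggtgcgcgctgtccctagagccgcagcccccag
The Lama2 stretch holds 1 GC box and 1 CG dinucleotide, and the Lama5 stretch holds 4 GC boxes and 24 CG dinucleotides. In GENCODE M21 the Lama2 gene begins at 27619758, upstream of the printed stretch, and the Lama5 gene at 180225859, inside it. The Lama2 stretch thus lies around a start inside the GENCODE gene, and the 2 stretches are not like for like. Over 32851 RefSeq promoters of this length, 35.7% hold a GC box on either strand and the median CG count is 7, with quartiles of 3 and 20. Of the 38 genes 24 had such an entry (27 promoters), of which 13 held a GC box. The letters TATAAA and the E-box CACGTG were in 0 of the 27, against 13.6% and 7.15% of all promoters, and the AP-1 element TGACTCA was in 2, against 5.2%, each searched on both strands. These are matches of letters, and binding was not measured.

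Lama5 (ENSMUSG00000015647.9) was at 277, 130.3 and 117 CPM in the Fadd knockout libraries and 214, 88.5 and 90.4 in the Fadd restored libraries. In the Casp8 line it was at 20.3, 43.1 and 69.5 CPM in the knockout and 19.9, 36 and 32.5 in the restored libraries. Every Fadd line library was above every Casp8 line library, and the library numbered 1 was the highest of each Fadd line group. Lama5 was higher in the Fadd line between the knockout groups (log2 change 1.98, SE 0.52, adjusted p = 0.0333) and between the restored groups (log2 change 2.15, SE 0.52, adjusted p = 0.0358). Both calls were narrow: the first had an adjusted p of 0.113 without Fadd knockout library 1, 0.117 without Casp8 knockout library 2 and 0.0596 without Casp8 knockout library 1, and over all alternatives run the adjusted p ranged from 0.00177 to 0.117. The restored call was lost with the replicate block (adjusted p = 0.0554), without any 1 of the 6 restored libraries, and without Fadd knockout library 2 or Casp8 knockout library 2 (adjusted p from 0.0534 to 0.133).

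Lama2 (ENSMUSG00000019899.16) was at 0.0527, 0.182 and 0.0657 CPM in the Fadd knockout and 2.03, 0.41 and 0.304 in the Fadd restored libraries. It was at 2.24, 44.6 and 53.1 CPM in the Casp8 knockout and 17.5, 17.2 and 15.8 in the Casp8 restored libraries. Casp8 knockout library 1 held about the level of Fadd restored library 1, while the other 5 Casp8 line libraries lay well above the Fadd line. Lama2 was lower in the Fadd line between the knockout groups (log2 change -8.33, SE 1.28, adjusted p = 0.00236) and between the restored groups (log2 change -4.19, SE 1.02, adjusted p = 0.0365). Without both Casp8 line libraries numbered 1 the restored change was -4.17, adjusted p = 0.00405, and with the replicate block its adjusted p was 0.0544. That call was also lost when library 2 of any group, or library 3 of either restored group, was left out (adjusted p from 0.0519 to 0.141). An antisense gene, Gm48084, shares 3.862% of the exon bases of Lama2, and the labels do not state whether counting used the strand.

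Lama4 (ENSMUSG00000019846.11) was at 0.0527, 0.146 and 0.109 CPM in the Fadd knockout and 0.384, 0.747 and 0.651 in the Fadd restored libraries. It was at 0.945, 73.6 and 129.8 CPM in the Casp8 knockout and 38.6, 14.4 and 12.2 in the Casp8 restored libraries. The 6 Fadd line libraries were all below 1 CPM, and so was Casp8 knockout library 1, while the other 5 Casp8 line libraries were above 12 CPM. Lama4 was lower in the Fadd line between the knockout groups (log2 change -9.35, SE 1.55, adjusted p = 0.00364) and between the restored groups (log2 change -5.19, SE 1.25, adjusted p = 0.0348). Without both Casp8 line libraries numbered 1 the knockout change was -9.93, adjusted p = 5.4e-06. The restored call was lost without library 2 of either knockout group, any Fadd restored library or Casp8 restored library 2 or 3 (adjusted p from 0.0519 to 0.122). Within the Casp8 line Lama4 was at a log2 change of 1.65 (SE 1.04, adjusted p = 0.951), and it rose with loss of caspase-8 only in the comparison without both libraries numbered 1 (2.93, adjusted p = 0.0296), which leaves 2 libraries in each of those groups.

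The other alpha chains were low. Lama1, which codes for the alpha 1 chain of the embryonic basement membrane, had 2 counts in the Fadd knockout group against 94 in the Casp8 knockout group, a ratio of 61.2 (95% counting interval 16.5 to 513) for Casp8 over Fadd, and was called between the knockout groups (log2 change -5.70, SE 1.53, adjusted p = 0.0365). Leaving out 1 library ended the call for each of the 3 Fadd knockout libraries, for Casp8 knockout libraries 2 and 3, Fadd restored libraries 2 and 3 and Casp8 restored libraries 2 and 3, with the adjusted p between 0.0527 and 0.12. Lama3, the alpha 3 chain of epithelial basement membranes, stayed between 0.127 and 2.02 CPM and was called in none of the 5 comparisons, with a knockout change of -1.65. That change was called without Fadd knockout library 1 (-2.87, adjusted p = 0.0314) and without both Fadd line libraries numbered 1 (-2.87, adjusted p = 0.0371).

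On the deposited TPM scale, which is per length and lets genes be compared, Lama5 made up 99.26 to 99.57% of all laminin alpha transcripts in the Fadd knockout libraries and 95.71 to 97.26% in the Fadd restored libraries. In the Casp8 line it made up 15.53, 18.17 and 75% of them in the knockout libraries, the last in library 1, and 14.32 to 42.57% in the restored libraries. Lama4 held 55.62 and 61.43% in Casp8 knockout libraries other than library 1, where it held 6.944%, and 28.99 to 60.71% in the restored libraries. Lama2 held 13.19 to 25.24% in the Casp8 knockout and 22.94 to 31.64% in the Casp8 restored libraries, and at most 2.949% in the Fadd line. The summed laminin alpha level overlapped between the lines, from 4.75 to 12.89 TPM in the Fadd line and from 1.44 to 27.43 TPM in the Casp8 line. These shares describe the libraries and were not tested apart from the genes themselves.

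**Figure D2:**
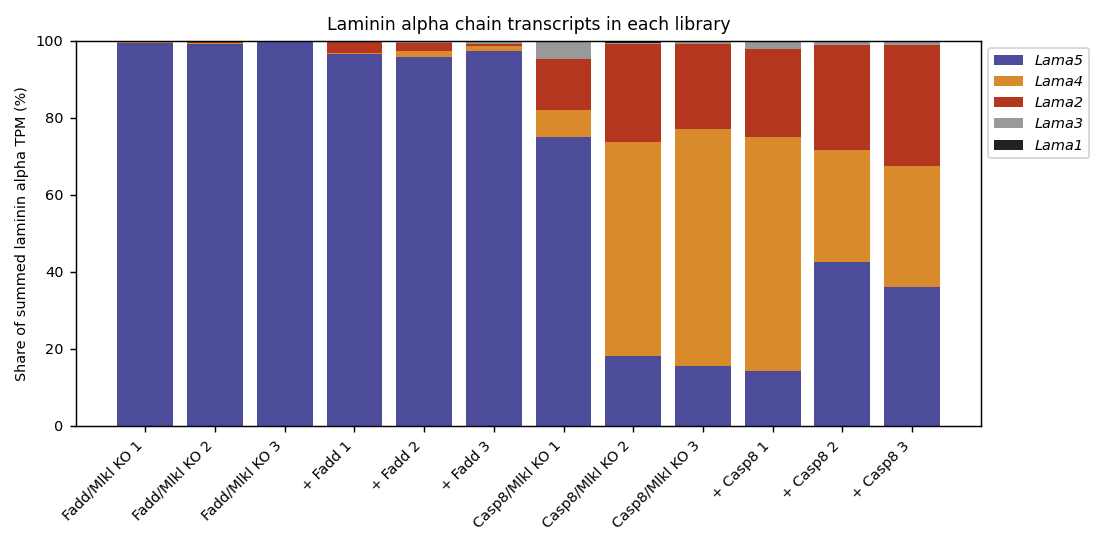
Share of the summed laminin alpha TPM (%, y axis) taken by each alpha chain gene in each of the 12 libraries (x axis, 3 per group). Lama5 fills nearly the whole bar in the Fadd line, while Lama4 and Lama2 take most of it in 5 of the 6 Casp8 line libraries and Casp8 knockout library 1 keeps 75% Lama5.

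The laminin beta chain genes and Lamc1 were called in none of the 5 comparisons. Lamc1, the gamma 1 chain that most laminins contain, was at 237 ± 37.8 CPM (mean ± SD, n = 3) in the Fadd knockout, 233 ± 16.9 in the Fadd restored, 298 ± 45.2 in the Casp8 knockout and 252 ± 14.1 in the Casp8 restored group. It held 87.69 to 98.43% of the laminin gamma TPM over the 12 libraries.

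Lamb1, the beta 1 chain, was at 205, 139 and 174 CPM in the Casp8 knockout and 102, 66.5 and 85.3 in the Casp8 restored libraries. It was at 135, 169 and 194 CPM in the Fadd knockout and 107, 117 and 144 in the Fadd restored libraries. The Casp8 groups did not overlap, which held for 10.7% of all genes. The change with loss of caspase-8 missed the threshold (log2 change 1.03, SE 0.22, adjusted p = 0.326). It passed with the replicate block within each line (1.03, adjusted p = 0.036) and with DESeq2 (1.05, adjusted p = 0.00362). In the Fadd line the value was not called (log2 change 0.44, SE 0.21, adjusted p = 0.559).

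Lamb2, the beta 2 chain of synaptic and kidney laminins, was at 302, 82.7 and 70.9 CPM in the Fadd knockout and 311, 139 and 111 in the Fadd restored libraries, with library 1 the highest in each. It was at 102, 241 and 261 CPM in the Casp8 knockout and 236, 261 and 238 in the Casp8 restored libraries, with library 1 the lowest of the knockout group. The groups overlapped, and no comparison was called with all libraries. Between the knockout groups the log2 change was -0.41, and without both Fadd line libraries numbered 1 it was called (-1.39, adjusted p = 0.0466). Within the lines it gave log2 change -0.30, SE 0.57, adjusted p = 1 for loss of FADD and log2 change -0.28, SE 0.57, adjusted p = 0.999 for loss of caspase-8. Lamb3, the beta 3 chain of the skin's anchoring laminin, ran from 0.556 to 7.45 CPM and was not called by edgeR with all libraries and no block. It was higher in the Fadd line between the restored groups with the block (2.35, adjusted p = 0.0365), with DESeq2 (2.09, adjusted p = 0.0458) or without Casp8 knockout library 1 (2.06, adjusted p = 0.0277).

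**Figure D3:**
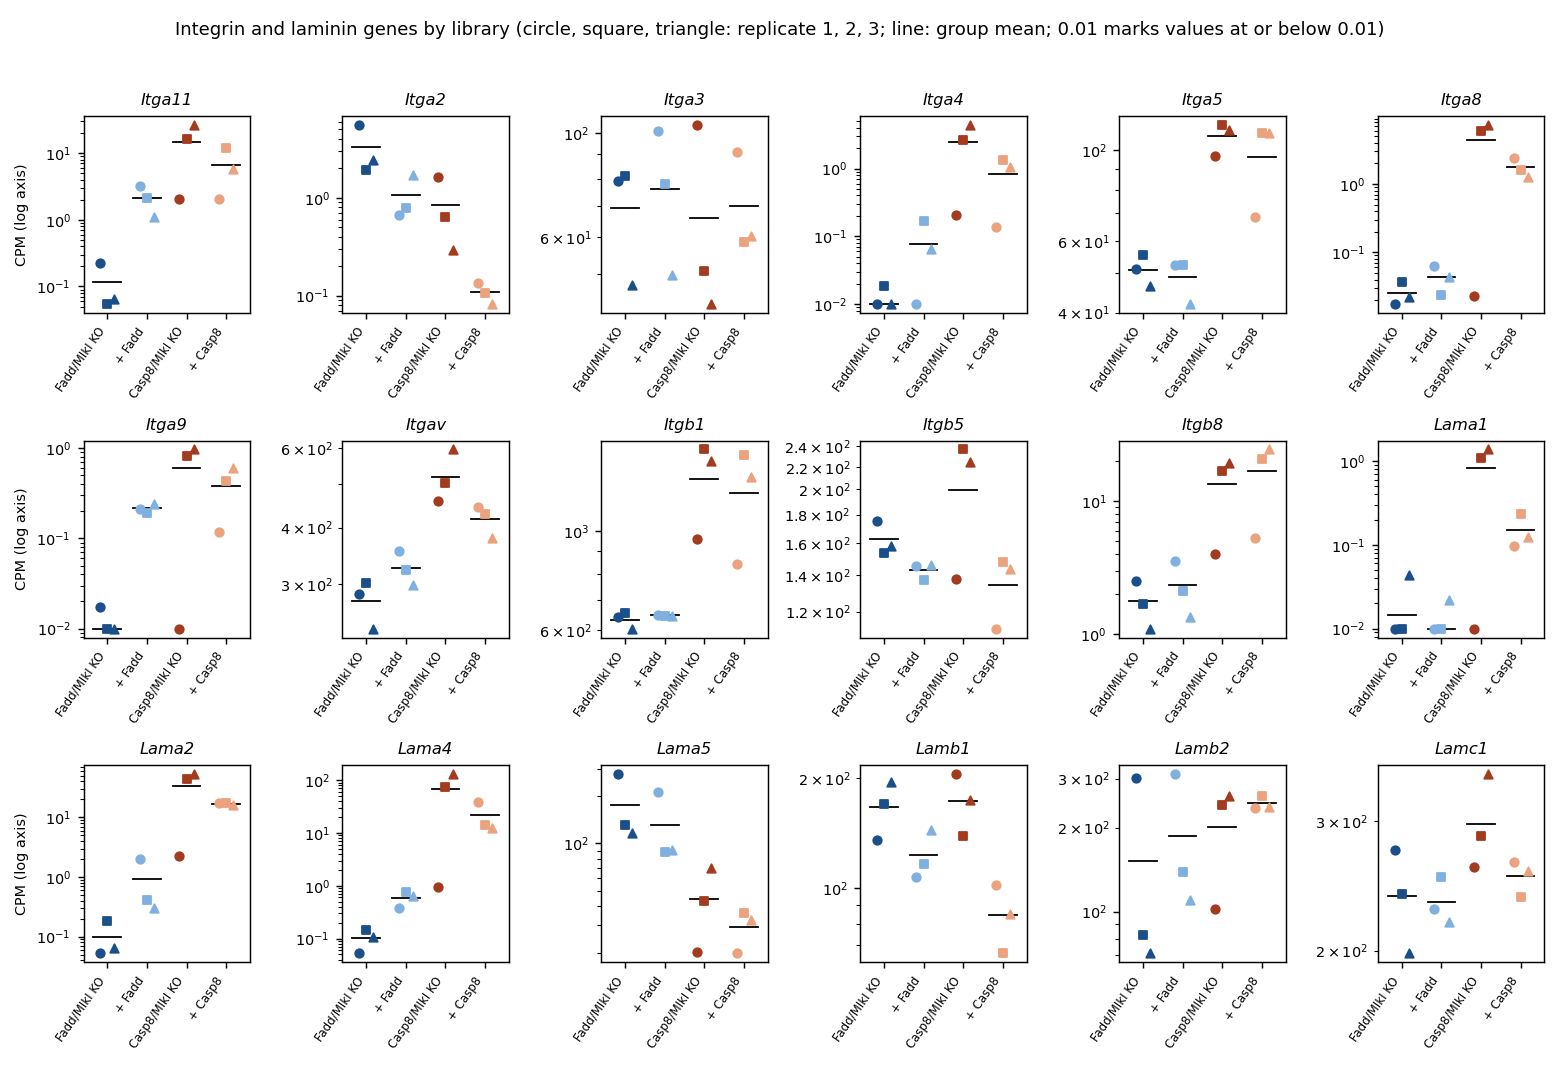
CPM on a log axis (y) of the 18 genes called in a comparison or at 50 CPM or more on average in a group, by group (x), with circles, squares and triangles for replicates 1, 2 and 3, a line at each group mean, and values at or below 0.01 drawn at 0.01. Casp8 knockout library 1 is the low circle for Lama2, Lama4, Itga8 and Itga9.

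Among the integrin alpha chains, 4 genes of low level were near 0 in the Fadd knockout libraries. Itga11 codes for the collagen-binding alpha 11 chain of mesenchymal cells, Itga8 for the alpha 8 chain that binds nephronectin, Itga9 for the alpha 9 chain that binds tenascin-C, and Itga4 for the alpha 4 chain that binds fibronectin and VCAM1. Each was called lower in the Fadd line between the knockout groups. The RefSeq starts of Itga11 (chr9:62677605-62677904, plus strand) and of Itgb8 (chr12:119238227-119238526, minus strand) are printed from the same source and build for comparison with Lama2. Itgb8, like Itgb1, is an integrin beta gene called in the same direction. In GENCODE M21 the Itgb8 gene begins at 119238802, upstream of its stretch, and the Itga11 gene at 62677826, inside its stretch. Neither stretch has a match to the 4 motifs, so neither has capitals.
Itga11: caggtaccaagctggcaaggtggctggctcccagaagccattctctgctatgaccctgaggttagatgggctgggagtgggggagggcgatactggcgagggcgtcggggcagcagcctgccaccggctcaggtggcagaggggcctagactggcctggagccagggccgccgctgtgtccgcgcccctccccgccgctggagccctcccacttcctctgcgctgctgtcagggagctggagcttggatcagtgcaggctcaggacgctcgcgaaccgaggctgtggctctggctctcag
Itgb8: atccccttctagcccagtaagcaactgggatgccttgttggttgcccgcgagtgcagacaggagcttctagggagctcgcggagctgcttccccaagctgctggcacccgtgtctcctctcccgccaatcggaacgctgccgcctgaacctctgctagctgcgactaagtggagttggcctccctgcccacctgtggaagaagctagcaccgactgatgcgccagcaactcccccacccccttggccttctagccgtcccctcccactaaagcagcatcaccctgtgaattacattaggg
They hold 16 and 13 CG dinucleotides, against 1 in the Lama2 stretch. Promoters of other genes called lower in the Fadd knockout group held 27 (Itgb1), 24 (Itgav), 23 (Itga8), 13 (Itga5), 10 (Itga4) and 10 (Itga9). The stretch of Lama5, which was called higher, held 24, so genes called lower lay both below and above it.

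Itga11 (ENSMUSG00000032243.8) was at 0.228, 0.0546 and 0.0657 CPM in the Fadd knockout and 3.2, 2.1 and 1.11 in the Fadd restored libraries. It was at 2.05, 16.1 and 26.6 CPM in the Casp8 knockout and 2.08, 11.8 and 5.8 in the Casp8 restored libraries. Fadd knockout was the only group below 1 CPM throughout, and it overlapped with neither the Fadd restored nor the Casp8 knockout group. Itga11 was lower in the Fadd than in the Casp8 knockout group (log2 change -6.95, SE 1.12, adjusted p = 0.00308), a call kept under every alternative run. Loss of FADD gave log2 change -4.14, SE 1.02, adjusted p = 0.0885, which passed with the replicate block within each line (-4.25, adjusted p = 0.0149), with DESeq2 (-4.18, adjusted p = 0.000199), without the filter on low counts (-4.15, adjusted p = 0.0376) and without Casp8 knockout library 1 (-4.15, adjusted p = 0.0234). The difference between the changes in the lines missed the threshold (log2 change -5.32, SE 1.32, adjusted p = 0.128). It passed with the block (-5.12, adjusted p = 0.0258), with DESeq2 (-5.39, adjusted p = 0.000827), without Casp8 knockout library 1 (-5.84, adjusted p = 0.0217) and without both Casp8 line libraries numbered 1 (-5.41, adjusted p = 0.0168).

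Itga8 (ENSMUSG00000026768.10) stayed at or below 0.064 CPM in all 6 Fadd line libraries, was at 0.023, 5.91 and 7.32 CPM in the Casp8 knockout and at 2.39, 1.6 and 1.28 in the Casp8 restored libraries. Casp8 knockout library 1 lay within the range of the Fadd line. Itga8 was lower in the Fadd line between the knockout groups (log2 change -7.30, SE 1.45, adjusted p = 0.00951) and the restored groups (log2 change -5.22, SE 1.34, adjusted p = 0.0433). The restored call was lost with the replicate block (adjusted p = 0.055) and without any 1 library of Fadd knockout, Fadd restored, Casp8 knockout 2 or 3 and Casp8 restored 2 or 3 (up to adjusted p = 0.155). An antisense gene, E030013I19Rik, shares 5.049% of its exon bases.

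Itga4 (ENSMUSG00000027009.18) had 1 count in the Fadd knockout group and 276 in the Casp8 knockout group, a ratio of 359 (95% counting interval 64 to 14200) for Casp8 over Fadd. Its levels were 0, 0.169 and 0.0651 CPM in the Fadd restored, 0.207, 2.67 and 4.42 in the Casp8 knockout and 0.136, 1.33 and 1.07 in the Casp8 restored libraries. It was lower in the Fadd line between the knockout groups (log2 change -8.08, SE 1.65, adjusted p = 0.011). Between the restored groups it missed the threshold (log2 change -3.43, SE 1.25, adjusted p = 0.143), and it passed with the block (-3.58, adjusted p = 0.00967), with DESeq2 (-3.45, adjusted p = 0.0474) and without both Casp8 line libraries numbered 1 (-3.94, adjusted p = 0.0115). Cerkl, on the other strand, shares 8.041% of its exon bases.

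Itga9 (ENSMUSG00000039115.13) had 1 count in the Fadd knockout group and 69 in the Casp8 knockout group, a ratio of 89.8 (95% counting interval 15.6 to 3600). Its levels were 0.213, 0.193 and 0.239 CPM in the Fadd restored, 0, 0.828 and 0.966 in the Casp8 knockout and 0.117, 0.43 and 0.597 in the Casp8 restored libraries, and Casp8 knockout library 1 had none. It was lower between the knockout groups (log2 change -6.06, SE 1.51, adjusted p = 0.0269), which leaving out a Fadd knockout library, or Casp8 knockout library 2 or 3, took past the threshold (adjusted p from 0.0782 to 0.0957).

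Itga2, the alpha 2 chain of the collagen receptor, was the integrin gene called in the other direction. It was at 0.662, 0.795 and 1.71 CPM in the Fadd restored and 0.136, 0.108 and 0.0823 in the Casp8 restored libraries, groups that did not overlap (log2 change 3.25, SE 0.72, adjusted p = 0.0251). It was at 5.57, 1.93 and 2.45 CPM in the Fadd knockout and 1.61, 0.644 and 0.293 in the Casp8 knockout libraries (log2 change 1.95, SE 0.64, adjusted p = 0.0776). The restored call was lost without Fadd restored library 2 or 3 or Casp8 restored library 2 or 3 (adjusted p from 0.0595 to 0.111). Loss of caspase-8 gave log2 change 2.94, SE 0.71, adjusted p = 0.406, and DESeq2 called it (2.99, adjusted p = 0.0141). Its neighbour Itga1, the alpha 1 chain of another collagen receptor, 21 kb away on chromosome 13, was called in no comparison.

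The alpha chains that fibroblasts use most were present in both lines at levels that differed by a smaller amount. Itga5, the alpha 5 chain of the fibronectin receptor, was at 51, 55.5 and 46.4 CPM in the Fadd knockout and 52.2, 52.3 and 42 in the Fadd restored libraries. It was at 96.6, 115 and 112 CPM in the Casp8 knockout and 68.4, 110.3 and 110.3 in the Casp8 restored libraries, so that no Fadd line library reached a Casp8 line library. It was lower in the Fadd line between the knockout groups (log2 change -1.08, SE 0.19, adjusted p = 0.00547), under every alternative run, and between the restored groups (log2 change -0.98, SE 0.19, adjusted p = 0.0154), where the call was lost without Fadd restored library 2 or 3 or Casp8 restored library 2 or 3 (adjusted p from 0.0609 to 0.0807).

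Itgav, the alpha V chain, held 41.12 to 57.33% of all integrin alpha TPM over the 12 libraries. It was at 285, 301 and 239 CPM in the Fadd knockout and 354, 322 and 298 in the Fadd restored libraries, and at 457, 502 and 596 in the Casp8 knockout and 444, 429 and 380.0 in the Casp8 restored libraries. The lines did not overlap. It was lower in the Fadd line between the knockout groups (log2 change -0.91, SE 0.16, adjusted p = 0.00415), under every alternative run, and not called between the restored groups (log2 change -0.36, SE 0.15, adjusted p = 0.204). Gm13684, on the other strand, shares 5.901% of its exon bases.

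Itga3, the alpha 3 chain of a laminin receptor, overlapped between all 4 groups, at 69.2 ± 18.9, 76.2 ± 25.6, 66.1 ± 33.2 and 70 ± 18.3 CPM in the order Fadd knockout, Fadd restored, Casp8 knockout and Casp8 restored (mean ± SD, n = 3). Itga6 and Itga7, the alpha 6 and alpha 7 chains of the other laminin receptors, ran from 20.8 to 71.3 and from 4.67 to 36 CPM. None of these 3 laminin-binding chains was called in a comparison between the lines or within them. Itga10, a chondrocyte collagen receptor chain, and Itga2b, the platelet fibrinogen receptor chain, stayed below 9 CPM without a call, and Gm42957, on the same strand, shares 33.533% of the exon bases of Itga10.

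Itgb1 held 73.73 to 87.53% of all integrin beta TPM. The beta 1 chain is the common partner of the alpha chains above that bind collagen, laminin and fibronectin. It was at 642, 655 and 606 CPM in the Fadd knockout and 651, 647 and 648 in the Fadd restored libraries, a narrow range, and at 961, 1519 and 1431 in the Casp8 knockout and 842, 1475 and 1320.3 in the Casp8 restored libraries, where library 1 was the lowest of each group. Every Casp8 line library was above every Fadd line library. It was lower in the Fadd line between the knockout groups (log2 change -1.04, SE 0.22, adjusted p = 0.0142) and the restored groups (log2 change -0.90, SE 0.22, adjusted p = 0.0389). The knockout call was lost without Fadd knockout library 3 or Casp8 knockout library 2 or 3 (adjusted p from 0.0534 to 0.0641), and the restored call without Fadd knockout library 2 or 3, any Fadd restored library, Casp8 knockout library 2 or 3 or Casp8 restored library 2 or 3 (up to 0.174).

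Itgb5, the beta 5 chain of a vitronectin receptor, was at 162 ± 11.5, 143 ± 5.07, 199 ± 53.9 and 134 ± 19.6 CPM in the same order of groups, and held 11.41 to 25.53% of integrin beta TPM. It was not called between the lines or within them, and gave log2 change 0.57, SE 0.20, adjusted p = 0.701 for loss of caspase-8. Itgb8, the beta 8 chain that with alpha V activates TGF-beta, was at 2.49, 1.67 and 1.09 CPM in the Fadd knockout and 3.54, 2.12 and 1.35 in the Fadd restored libraries. It was at 3.99, 16.7 and 19.4 CPM in the Casp8 knockout and 5.29, 20.7 and 24.5 in the Casp8 restored libraries, with library 1 the lowest of each. It was lower in the Fadd line between the knockout groups (log2 change -2.93, SE 0.70, adjusted p = 0.022) and between the restored groups (log2 change -2.85, SE 0.70, adjusted p = 0.0366). The restored call was lost with the replicate block (adjusted p = 0.0638), and without library 2 of either knockout group, any Fadd restored library or Casp8 restored library 2 or 3 (up to 0.139). The knockout call was lost without Fadd knockout library 2 or 3 or Casp8 knockout library 2 or 3 (up to 0.0818). Itgb3, the beta 3 chain that pairs with alpha V, and Itgb4, Itgb6, Itgb7 and Itgbl1 were not called. Itgb3 was called lower in the Fadd knockout group with DESeq2 (-1.61, adjusted p = 0.014), and Itgb4 without Fadd knockout library 1 (-3.22, adjusted p = 0.0491).

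Within the lines, edgeR without a replicate block called no integrin or laminin gene, and the values lay on both sides of 0. With the block within each line, edgeR called Itga11 for loss of FADD (-4.25, adjusted p = 0.0149). It also called Lamb1 for loss of caspase-8 (1.03, adjusted p = 0.036). The median absolute log2 change of the 31 genes was 0.44 for loss of FADD and 0.57 for loss of caspase-8, against 0.22 and 0.21 over all genes. For loss of FADD 11 of 31 values were above 0, and for loss of caspase-8 24 of 31, a description that was not tested. The share above 0 over all genes was not counted, and the median change over all genes was 0.0037 and 0.0079. Knockout and restored libraries did not overlap for 6 genes in the Fadd line (16.5% of all genes) and for 3 in the Casp8 line (10.7%). The genes at 50 CPM or more on average in a group were all uncalled by edgeR without a replicate block. With loss of FADD their log2 changes were -0.03 for Itgb1, -0.24 for Itgav, 0.06 for Itga5, -0.14 for Itga3 and 0.03 for Lamc1. They were 0.42 for Lama5, 0.44 for Lamb1, 0.18 for Itgb5, -0.30 for Lamb2 and -2.51 for Lama4. With loss of caspase-8 they were 0.10, 0.31, 0.17, -0.08, 0.24, 0.59, 1.03, 0.57, -0.28 and 1.65 in the same order.

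**Figure D4:**
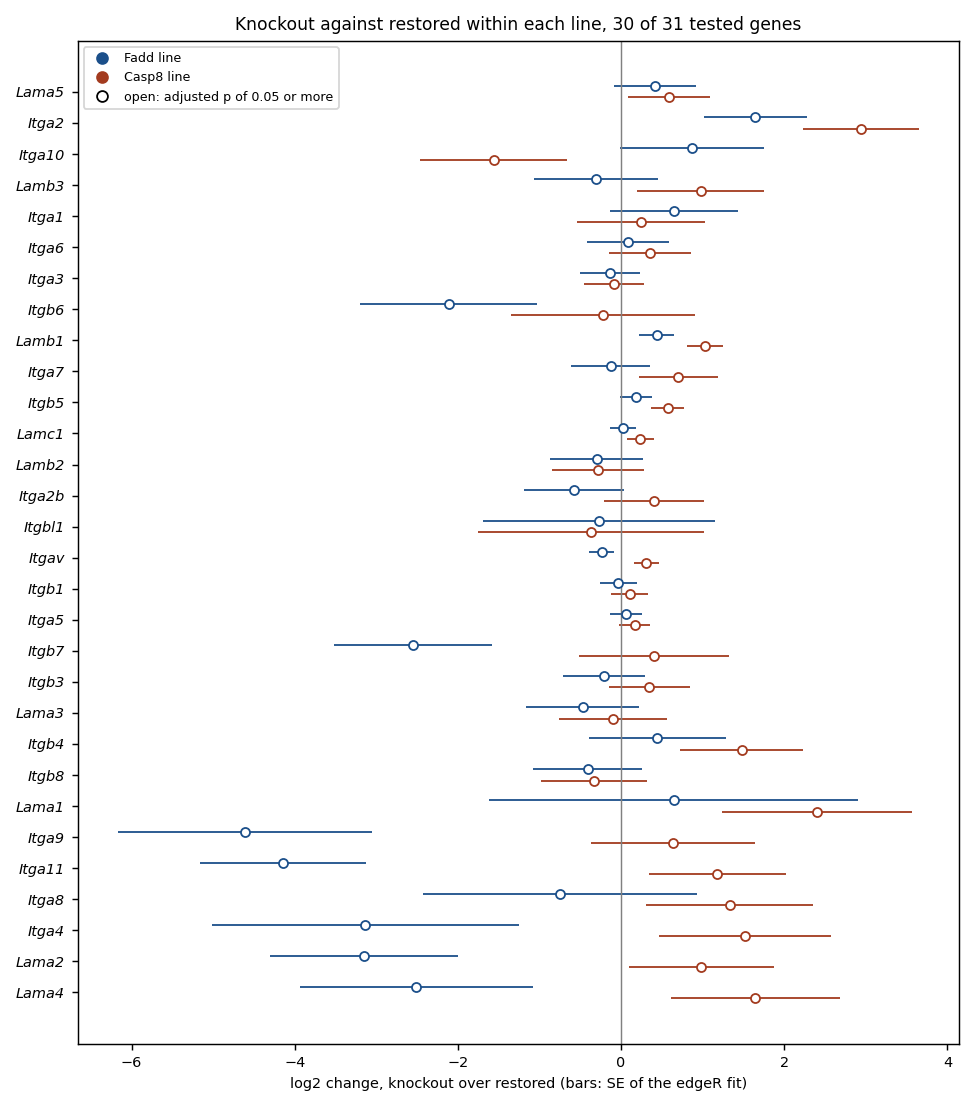
Log2 change, knockout over restored, of 30 of the 31 tested genes in the Fadd line (blue) and the Casp8 line (red), with standard errors of the edgeR fit. Every point is open, since no gene passed the threshold in this fit without a replicate block, and the rarer genes have the widest bars.

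The genes that laminins and integrins work with were taken from 3 lists. Of 30 tested basement membrane proteins and integrin ligands, 10 were lower and 0 higher in the Fadd than in the Casp8 knockout group (7.01% and 3.46% of all genes), 4 were lower between the restored groups (3.4% of all genes), and 1 was lower with loss of FADD (1.24% of all genes). That one was Nid1, which codes for nidogen-1, the protein that ties laminin gamma 1 to collagen IV. Nid1 was at 0, 0.182 and 0.0438 CPM in the Fadd knockout and 9.29, 32.2 and 29 in the Fadd restored libraries, 95.5, 223 and 271 in the Casp8 knockout and 30.1, 147 and 109 in the Casp8 restored libraries. Nid1 was lower in the Fadd knockout than in the Fadd restored group (log2 change -8.22, SE 1.01, adjusted p = 0.00205). It was also lower in the Fadd than in the Casp8 knockout group (log2 change -11.29, SE 1.09, adjusted p = 0.000166). Its change differed between the lines (log2 change -9.26, SE 1.21, adjusted p = 0.00357). With limma-voom the change of Nid1 in the Fadd line and the difference of its changes missed the threshold (adjusted p = 0.0834 and 0.0913). Lamc1, its laminin partner, was not called, and Nid2, the related nidogen-2, was at 69.1, 74.5 and 28.9 CPM in the Fadd knockout and 205, 142 and 52.9 in the Fadd restored libraries, uncalled (log2 change -1.21, SE 0.59, adjusted p = 0.549).

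Several ligands of the integrins above were lower in the Fadd line. Fibronectin, Fn1, the ligand of alpha 5 beta 1, was at 276, 223 and 162 CPM in the Fadd knockout and 573, 2339 and 3411 in the Casp8 knockout libraries (log2 change -3.26, SE 0.53, adjusted p = 0.00321). Tnc, the tenascin-C that alpha 9 binds, was lower in the Fadd line between the knockout groups (log2 change -3.47, SE 0.47, adjusted p = 0.00114) and the restored groups (log2 change -4.26, SE 0.49, adjusted p = 0.00107). Postn, the matricellular periostin, was at 0.422, 0.437 and 0.241 CPM in the Fadd knockout and 10.4, 721 and 1062 in the Casp8 knockout libraries, with library 1 again the low one (log2 change -10.65, SE 1.51, adjusted p = 0.00143, and 0.0782 with limma-voom). Fbn1, fibrillin-1, and Spp1, osteopontin, were lower too (log2 change -4.19, SE 0.47, adjusted p = 0.000368 and log2 change -3.49, SE 0.44, adjusted p = 0.000813), as were Thbs1 (-1.62), Tgfb3 (-3.98), Ntn1 (-0.93) and Ntn4 (-1.33) on the log2 scale. The calls of Thbs1 and Ntn1 were lost without Casp8 knockout library 2 (adjusted p = 0.13 and 0.0557) or 3 (0.131 and 0.0531), and that of Thbs1 also without Fadd knockout library 1 or 3, Fadd restored library 2 or Casp8 restored library 2 (up to 0.126). Between the restored groups the 4 called were Tnc, Fbn1, Postn and Tgfb3, of which the call of Tgfb3 was lost under 5 of 20 alternatives (adjusted p up to 0.0657) and that of Postn with limma-voom (0.0739).

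Of 8 non-integrin laminin receptors, 1 was lower and 0 higher with loss of FADD (1.24% and 0.287% of all genes). Bcam was lower in the Fadd knockout than in the Fadd restored group (log2 change -6.76, SE 0.92, adjusted p = 0.00381). Bcam codes for a receptor of the laminin alpha 5 chain. It was at 0.0527, 0.0182 and 0 CPM in the Fadd knockout, 5.17, 2.17 and 1.61 in the Fadd restored, 2.01, 4 and 4.1 in the Casp8 knockout and 0.758, 0.179 and 0.823 in the Casp8 restored libraries. The Fadd knockout libraries were below all the others. Its change differed between the lines (log2 change -9.28, SE 1.15, adjusted p = 0.00283) and kept its call under every alternative run. Sdc1, the syndecan-1 co-receptor, was lower in the Fadd than in the Casp8 knockout group (log2 change -1.02, SE 0.22, adjusted p = 0.0148), a call lost without Casp8 knockout library 2 or 3 (adjusted p = 0.0701 and 0.0632). Dag1, the dystroglycan that binds laminin, was not called.

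Of 36 tested genes of the adhesion machinery, 9 were lower and 0 higher in the Fadd than in the Casp8 knockout group (7.01% and 3.46% of all genes), and 3 were lower and 1 higher between the restored groups (3.4% and 2.93% of all genes), so the 1 higher is near the share of all genes. With edgeR 0 were called for loss of FADD and 0 for loss of caspase-8 (3 and 1 at an unadjusted p under 0.05), and DESeq2 called 0 and 1. Among the 9 were Vcl (-1.55), Zyx (-0.99), Fermt2 (-1.21), Rsu1 (-0.94), Apbb1ip (-2.29), Cav1 (-1.45) and the kinases Src (-0.73) and Fyn (-1.65) on the log2 scale, of which vinculin and zyxin link integrins to actin. Between the restored groups Ilk (-1.09), Fyn (-1.84) and Cav1 (-1.05) were lower and Ptk2b (2.14), a kinase related to FAK, was higher. The call of Ilk was lost under 12 of 20 alternatives (adjusted p up to 0.191), that of Ptk2b under 5 (up to 0.099) and that of Cav1 without Casp8 restored library 2 (0.0519). Between the knockout groups the calls of Fermt2, Vcl, Apbb1ip, Rsu1 and Src were lost under 9, 6, 4, 3 and 3 of 20 alternatives (up to 0.137). Without Casp8 knockout library 2 the count of 9 was 3, and without Casp8 knockout library 3 or Fadd knockout library 2 or 3 it was 4. Cav1, Fyn and Zyx kept their calls between the knockout groups under every alternative run.

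**Figure D5:**
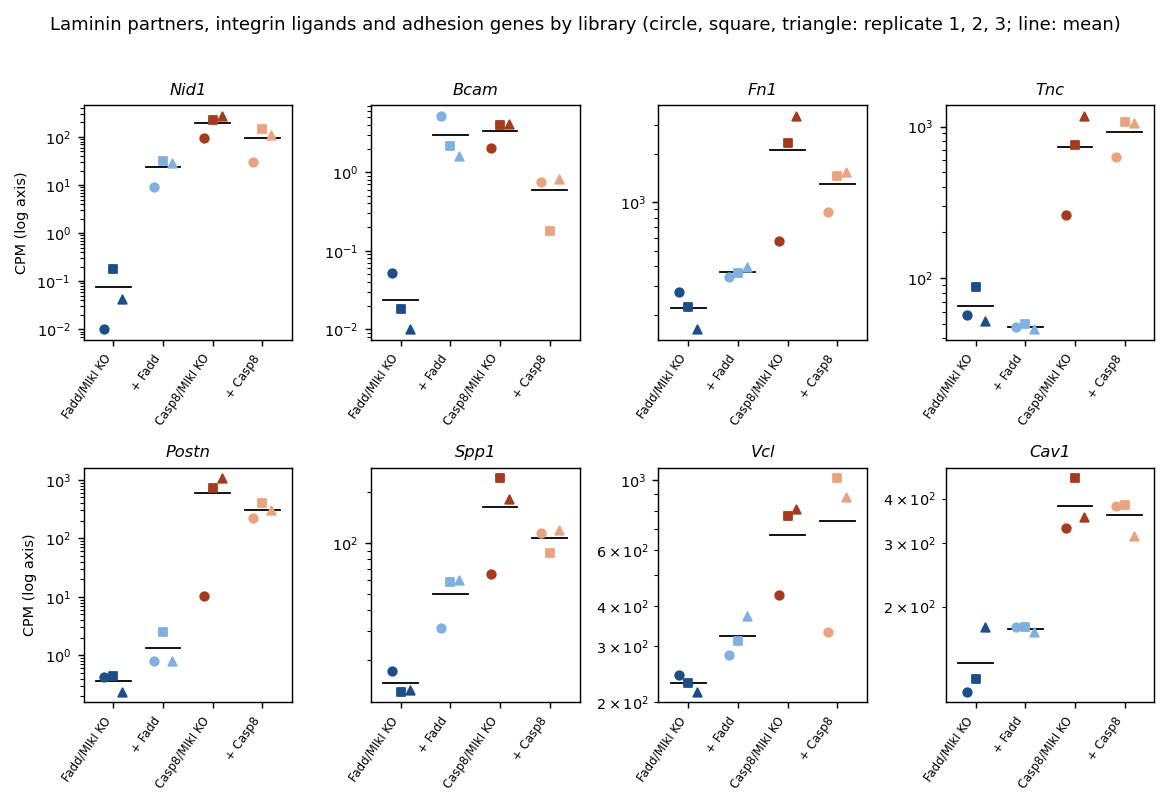
CPM on a log axis (y) of 8 called genes from the 3 lists by group (x), with circles, squares and triangles for replicates 1, 2 and 3 and a line at each group mean. Nid1 and Bcam are lowest in the Fadd knockout libraries, while Fn1, Tnc and Postn separate the lines.

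Markers of the cells' own type and of others differed in the same comparisons. The summed level of 12 fibroblast markers was 1889 to 2870 CPM in the Fadd knockout, 2918 to 4342 in the Fadd restored, 6089 to 14650 in the Casp8 knockout and 8638 to 13650 in the Casp8 restored libraries, and 8 of the 12 were above 1 CPM in each group. Of the 9 tested, 4 were lower (Col1a1, Col1a2, Vim and Twist1) and 1 higher (Dcn) in the Fadd than in the Casp8 knockout group (7.01% and 3.46% of all genes). Dcn was low in both, at 1.72, 0.364 and 0.657 CPM in the Fadd knockout and 0.0691, 0.138 and 0.117 in the Casp8 knockout libraries. Between the restored groups 2 of the 9 were lower and 0 higher (3.4% and 2.93% of all genes). Schwann and neural markers summed to 24.19 to 35.56 CPM in the Fadd line and 65.27 to 380.5 CPM in the Casp8 line, with 1 of 6 at 0 throughout, and Tubb3 and Map2 were lower in the Fadd line between the knockout groups. Epithelial markers summed to at most 34.5 CPM in any library, of which Krt19 held 33.9 CPM. Of the 3 tested, Epcam was lower in the Fadd than in the Casp8 knockout group (log2 change -5.14, SE 1.36, adjusted p = 0.0349), while Krt18 and Krt19 were not called. Epcam was near 0 in both groups, at 0.0176, 0 and 0 CPM in the Fadd knockout and 0.369, 0.299 and 0.264 in the Casp8 knockout libraries. The summed level of muscle markers was at most 2.073 CPM. The part of these marker levels in the integrin and laminin results was not tested. In bulk RNA, fewer cells of a type and less RNA per cell cannot be told apart.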

How the data were processed

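Total RNA of 12 cultures (4 groups of 3) was sequenced from TruSeq Stranded libraries as paired-end reads of 100 cycles. Per the labels' protocols, Cutadapt within Trim Galore (0.5.0) trimmed the reads, STAR (2.7.5a) placed them on mm10 with GENCODE M22, and RSEM gave the counts per gene. The authors deposited expected counts and TPM per gene; the submitters' processing notes also name Picard, HOMER 4.11, SAMtools and DESeq2 without a role. Expected counts are not normalized (96.05% of those above 0 are whole) and were rounded here; 92 spike-in rows were left out. A deposited table of retrovirus counts was not used here.

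Genes were kept by filterByExpr with a minimum count of 10, scaled by TMM and fitted with edgeR 4.0.16 (R 4.3.3) as 1 mean per group over all 12 libraries. DESeq2 1.42.0 and limma 3.58.1 (voom) were alternatives, with RLE scaling, no filter, replicate blocks, only the groups compared, and libraries left out. The fit was tested on simulated data. CPM are TMM-scaled, and the deposited TPM were used for shares.

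The genes and lists were chosen with earlier results of these data known. Per-library values are given for members called in any of the 5 comparisons or at 50 CPM or more on average in a group, with changes for called pairs. In the 3 lists the called genes are named (results on 2 genes are not reported here), and others such as Nid2 and Dag1 were chosen after their values were seen. Exon overlaps and positions come from GENCODE M21 on GRCm38 and promoters from RefSeq on GRCm38.p6.

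Replicate numbers were read as pairs where every same-numbered correlation of deviations from the group means exceeded 0.1, which held in the Fadd line (0.71, 0.52, 0.734), the Casp8 line (0.197, 0.308, 0.111) and between the restored groups (0.328, 0.199, 0.26), and not between the knockout groups (-0.3, 0.0403, -0.406). What a number marks is not in the labels, and p-values measure the spread between cultures.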

Additional observations from a re-analysis of the deposited data

Results flagged for a closer look

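The change with loss of FADD and the change with loss of caspase-8 differed, by the interaction term of the edgeR fit, for 2 genes of the laminin and integrin lists and for none of the 31 tested integrin and laminin genes. For Nid1, the linker between laminin and collagen IV, the Fadd line change minus the Casp8 line change was -9.26 on the log2 scale (adjusted p = 0.00357), from -8.22 in the Fadd line and 1.04 in the Casp8 line. It was lost with limma-voom (adjusted p = 0.0913) and kept under the other alternatives run. For Bcam, the laminin alpha 5 receptor, the difference was -9.28 (adjusted p = 0.00283), from -6.76 and 2.52, and was kept under every alternative run. Both genes had at most 0.182 CPM in any Fadd knockout library, so the size of the fitted change depends on the prior count.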

How the results depend on the processing

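The calls over all genes moved with these counts and are given as totals. For loss of FADD, where 0 genes were called (250 in total), DESeq2 called 2 (697), leaving out the low-count filter 1 (311), the replicate block within each line 1 (444) and leaving out both Casp8 line libraries numbered 1 gave 3 (524); leaving out single libraries gave 0 to 2, the 2 (390) without Casp8 knockout library 1. For loss of caspase-8, also 0 (1 in total), the values were 2 with DESeq2 (143), 1 with blocks inside the lines (6) and 2 without both Casp8 line libraries numbered 1 (111), and 0 to 0 when single libraries were left out. For the difference of changes they were 2 (420), 1 (239) and 3 (391) under the same settings, from 0 (138), and 0 to 4 with single libraries left out, the 4 (241) without Casp8 knockout library 1. Between the knockout groups the count of 12 (1718) was 5 with limma-voom (1423) and 7 with only the groups compared (1046), and 7 to 14 with single libraries left out, the 7 (829) without Casp8 knockout library 2. Between the restored groups the count of 8 (1039) was 3 with limma-voom (820), 5 with only the groups compared (797), 3 without both Fadd line libraries numbered 1 (638) and 15 without both Casp8 line libraries numbered 1 (3118). With single libraries left out it was 0 to 9: 0 without Fadd restored library 2 or 3 or Casp8 restored library 2 or 3 (301 to 526), 2 without Fadd knockout library 2 (762) or Casp8 knockout library 2 (711), and 3 without Fadd restored library 1 (470). The replicate block over all libraries gave 11 (2050) between the knockout groups and 6 (1534) between the restored groups, 4 of them among the 8; the knockout call of Lama5 was lost (adjusted p = 0.0648), and blocks changed the other calls named in the text. Between the knockout groups the numbers were not read as pairs, since the correlations there did not all exceed 0.1. Such pairs would follow from those read within the lines and between the restored groups, so the reading of numbers as pairs is not settled. The cause of these differences was not tested, and fits with libraries left out also rest on fewer libraries.

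Uncalled log2 changes turned sign when single libraries were left out. For loss of FADD the ranges were -0.033 to 0.14 for Itga5, -0.37 to 0.15 for Itga3, -0.078 to 1.01 for Lama5, -0.090 to 0.14 for Lamc1 and -1.28 to 0.34 for Lamb2. For loss of caspase-8 they were -0.050 to 0.27 for Itga5, -0.58 to 0.15 for Itga3, -0.12 to 0.28 for Itgb1 and -0.51 to 0.035 for Lamb2. Without both Fadd line libraries numbered 1, loss of FADD gave 0.012 for Itga3 and -0.11 for Lamc1, and without both Casp8 line libraries numbered 1, loss of caspase-8 gave 0.0074 for Lamb2. No scaling moved the median of all genes by more than 0.1. With 3 libraries a group the biological coefficient of variation was 0.37. Intervals on ratios cover counting error only.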
